A study of Homo sapiens with 16 samples.

Results

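SPARC, UNC93A, TTC7B, C20orf85 and AK9 are the 5 genes that hold or lie nearest to the highest-scoring H3K27ac regions lost with TWEAK in triple-negative breast cancer (TNBC) cells. A region was scored as lost when it carried a peak in all 4 control untreated lists and in no control TWEAK list. This held for 742 of 55219 consensus regions (1.34%), and the 5 loci were taken from 20046 protein-coding genes as those with the highest mean −log10 q-value over the 4 control untreated lists. The loss itself therefore chose these loci and is described here without a test. A missing peak means that a region was not called in a list, not that the mark was absent there.

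H3K27ac, acetylation of lysine 27 of histone H3, marks active enhancers and promoters and was mapped by ChIP-seq. The cells were MDA-MB-231 and Hs578T, both established TNBC lines of mesenchymal character. Each line was used as control cells and as Fn14 KO cells, made by CRISPR with 2 guides against Fn14, the receptor of the cytokine TWEAK. The study's supplement lists the Fn14 primers among those for genotyping CRISPR clones, and the number of clones per line is not given in the sources used here. All cells were starved for 8 h. Treated cells then received 10 ng/ml TWEAK over 48 h, with a renewal after 24 h. The 8 groups had 2 lists each, which the study's methods describe as biological replicates. They also describe cell line experiments as repeated on different days, and the labels tie no list to a day. P-values rest on the spread between these 16 lists. In bulk chromatin, acetylation in fewer cells and less acetylation per cell cannot be told apart.

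TWEAK is a ligand of the TNF superfamily. Its binding to Fn14 activates NF-κB and MAPK signalling, and through them transcription factors such as AP-1 that act at enhancers. An enhancer can lie inside a gene, beside it or far away, so the gene nearest to a region is not necessarily the gene it regulates. SPARC (osteonectin) is a secreted glycoprotein that binds collagen and calcium and is typical of mesenchymal cells. UNC93A is a multi-pass membrane protein of the family of UNC93B1, which carries nucleic acid-sensing Toll-like receptors to endosomes. TTC7B is a scaffold that holds the phosphatidylinositol 4-kinase PI4KA at the plasma membrane. AK9 is an adenylate kinase, an enzyme that exchanges phosphate groups between adenine nucleotides. C20orf85 is an open reading frame named for its position.

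The 16 lists held 39544 to 47197 peaks. Both lines showed peaks within 2 kb of the start sites of the mesenchymal and basal markers VIM, CD44, EGFR and AXL in all 16 lists. Of the luminal markers, ESR1 and PGR had a start-site peak in 0 lists and FOXA1 in 2, whereas GATA3 had one in all 16. The lists of MDA-MB-231 Fn14 KO cells had lower scores throughout than those of MDA-MB-231 control cells, with median −log10 q-values of 5.79 to 7.69 against 9.44 to 10.8. The part of this in the genotype comparisons was not tested.

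The 5 lost regions occupied different positions relative to their genes (hg38, GENCODE 44). The SPARC region (chr5:151693302-151695165, 1864 bp) lay 6.39 kb upstream of the start site of SPARC (ENSG00000113140.11, minus strand), within the long non-coding RNA gene CLMAT3. The UNC93A region (chr6:167308689-167311479, 2791 bp) lay in intron 7 of UNC93A (ENSG00000112494.10, plus strand), 17.4 kb downstream of the start site. The start site of TTLL2, a gene of the tubulin tyrosine ligase-like family, was closer to it at 13592 bp, so the region is given by the gene that holds it. The TTC7B region (chr14:90511621-90514903, 3283 bp) lay 9.66 kb beyond the 3′ end of TTC7B (ENSG00000165914.15, minus strand). The C20orf85 region (chr20:58101229-58104290, 3062 bp) was intergenic, 46.6 kb upstream of C20orf85 (ENSG00000124237.6, plus strand). The AK9 region (chr6:109512934-109515058, 2125 bp) was intragenic and spanned introns 31 and 32 with the coding exon 32 of AK9 (ENSG00000155085.16, minus strand). At AK9 the canonical start site was 176 kb away and the closest start site of any protein-coding AK9 transcript 6516 bp. None of the 5 regions lay within 2 kb of an annotated start site of a protein-coding transcript. Start sites of non-coding transcripts, such as those of CLMAT3, were not examined.

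To show what lies in these regions, the central 300 bases shared by the 4 control untreated peaks of each are printed below from the plus strand of hg38. They come from chr5:151694053-151694352, chr6:167310106-167310405, chr14:90513213-90513512, chr20:58102716-58103015 and chr6:109513649-109513948, in the order of the 5 loci. Capitals mark matches, on either strand, to the letters of the motifs searched.
SPARC: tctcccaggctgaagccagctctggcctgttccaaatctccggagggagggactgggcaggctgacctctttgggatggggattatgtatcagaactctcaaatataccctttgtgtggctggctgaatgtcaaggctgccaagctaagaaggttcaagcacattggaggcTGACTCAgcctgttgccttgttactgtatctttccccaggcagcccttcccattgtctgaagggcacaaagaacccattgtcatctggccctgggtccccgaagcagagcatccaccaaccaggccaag
UNC93A: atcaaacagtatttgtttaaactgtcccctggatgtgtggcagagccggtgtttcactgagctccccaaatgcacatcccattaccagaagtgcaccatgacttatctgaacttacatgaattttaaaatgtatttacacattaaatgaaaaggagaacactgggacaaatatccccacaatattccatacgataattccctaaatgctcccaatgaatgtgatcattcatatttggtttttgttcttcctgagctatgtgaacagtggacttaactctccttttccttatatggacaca
TTC7B: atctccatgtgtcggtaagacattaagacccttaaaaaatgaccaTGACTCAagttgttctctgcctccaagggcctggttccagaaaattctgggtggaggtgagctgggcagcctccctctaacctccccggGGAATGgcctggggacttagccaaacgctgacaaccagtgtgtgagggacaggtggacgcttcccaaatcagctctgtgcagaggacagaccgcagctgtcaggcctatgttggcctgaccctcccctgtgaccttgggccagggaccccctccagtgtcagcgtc
C20orf85: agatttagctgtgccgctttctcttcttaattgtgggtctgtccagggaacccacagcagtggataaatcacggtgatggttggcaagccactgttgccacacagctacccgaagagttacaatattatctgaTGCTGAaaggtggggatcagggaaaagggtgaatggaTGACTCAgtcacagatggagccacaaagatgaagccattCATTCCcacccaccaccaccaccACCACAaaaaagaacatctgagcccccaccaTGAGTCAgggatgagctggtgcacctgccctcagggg
AK9: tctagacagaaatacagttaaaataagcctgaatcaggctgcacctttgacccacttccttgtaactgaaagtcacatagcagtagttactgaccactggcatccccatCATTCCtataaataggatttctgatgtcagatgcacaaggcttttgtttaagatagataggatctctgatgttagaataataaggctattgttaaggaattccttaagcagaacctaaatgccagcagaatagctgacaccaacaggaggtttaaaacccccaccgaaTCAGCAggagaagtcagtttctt

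The AP-1 motif TGAGTCA occurred once in the SPARC and TTC7B windows and 2 times in the C20orf85 window, and 19.5% of all consensus regions held it in their central 300 bases. The TEAD motif GGAATG matched the TTC7B, C20orf85 and AK9 windows (19.2% of all regions). The MAF site TGCTGA matched the C20orf85 and AK9 windows (20.7%) and the RUNX motif TGTGGT matched the C20orf85 window (21.5%). No window held the CRE motif TGACGTCA (0.445%), the STAT motif TTCNNNGAA (9.42%), the glucocorticoid receptor motif (0.395%) or the NF-κB consensus (5.54%). The UNC93A window matched none of the letters searched. Matches are descriptions of these windows and not binding sites. The windows had GC contents of 38.3% (UNC93A), 40.3% (AK9), 51.3% (C20orf85), 54.3% (SPARC) and 57% (TTC7B), and 1 to 6 CpG dinucleotides.

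**Figure D1:**
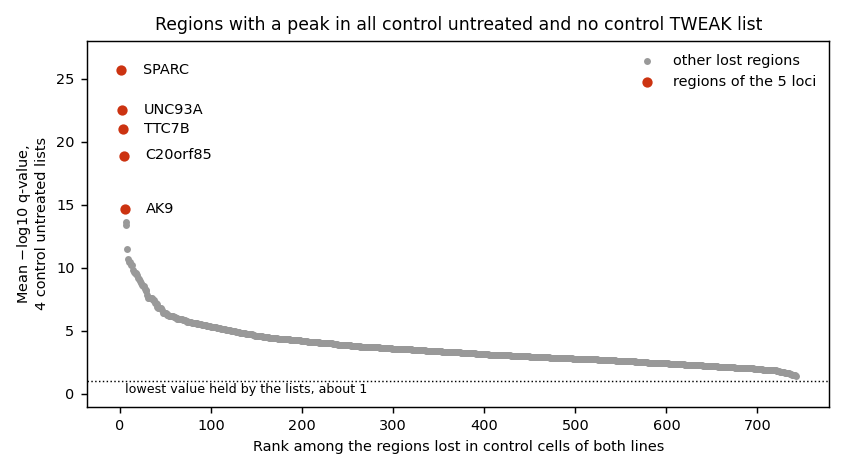
Mean −log10 q-value over the 4 control untreated lists (vertical axis) of the 742 regions lost in control cells of both lines, by rank (horizontal axis). Each point is 1 region; the 5 loci (red, named) lie between 14.7 and 25.7, above the median of 3.30, and the dotted line marks the lowest value the lists hold.

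Among the 742 lost regions the mean −log10 q-value ran from 1.39 to 25.7 with a median of 3.30, and the mean fold enrichment from 2.42 to 10.1 with a median of 3.50. The SPARC region stood first with a mean −log10 q-value of 25.7 and a fold enrichment of 10.1. It was followed by UNC93A (22.5 and 9.89), TTC7B (21.0 and 8.60), C20orf85 (18.9 and 7.22) and AK9 (14.7 and 7.18). The regions just outside were those nearest NPBWR1 (13.6 and 6.83), PAX8 (13.4 and 6.996), STX16 (11.5 and 5.67), PLXNA4 (10.7 and 5.84) and LRRIQ1 (10.5 and 5.76). AK9 differed from NPBWR1 by less than its own range over the 4 lists, 12.3 to 17.5. Within their own lists the 5 regions were not among the strongest. The SPARC peaks stood at the 63.2 to 81.2 percentile of −log10 q-values in the control untreated lists, and those of AK9 at the 55.1 to 67.3 percentile.

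All 5 regions kept a peak in all 8 Fn14 KO lists, which the choice of the loci did not use. Of the 742 lost regions, 189 (25.5%) had a peak in all 8 Fn14 KO lists and 13 (1.75%) in none. The 5 regions ranked just outside them also had a peak in all 8 Fn14 KO lists. Fn14 KO cells treated with TWEAK thus carried the peaks that control cells treated with TWEAK lacked, in both lines and at all 5 loci. Over all consensus regions, 17 (0.0308%) were lost with TWEAK in Fn14 KO cells of both lines. Within 1 line, 1.35% were lost and 0.321% gained in Fn14 KO MDA-MB-231 cells and 0.829% were lost and 1.05% gained in Fn14 KO Hs578T cells.

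**Figure D2:**
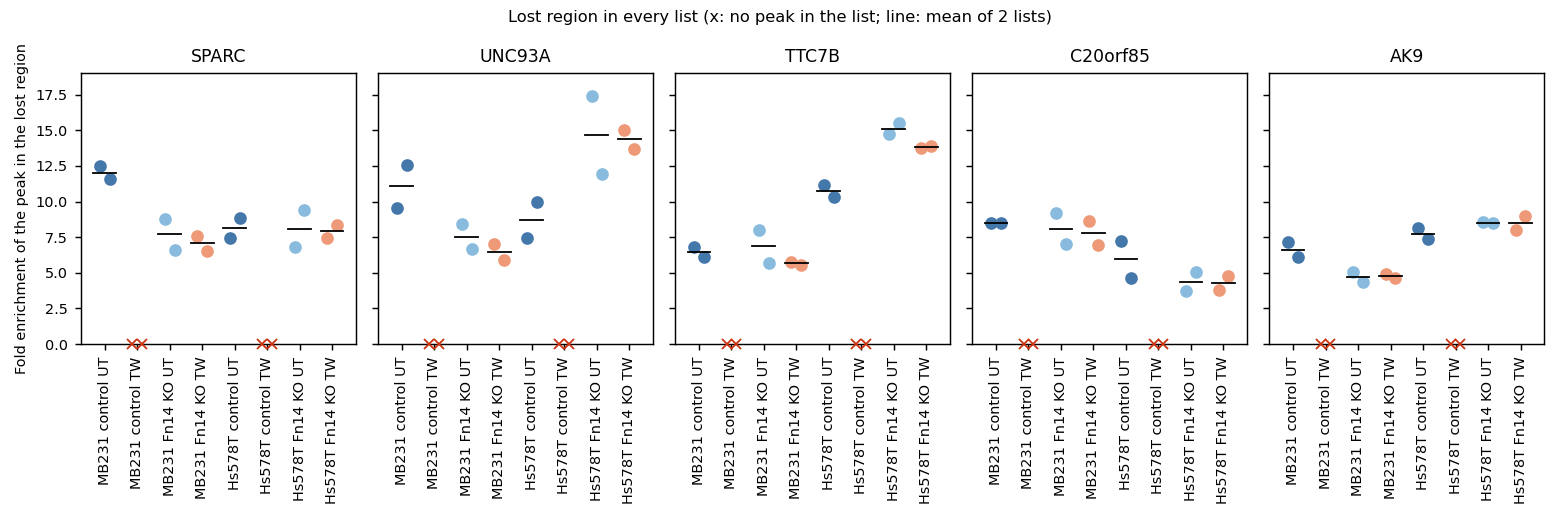
Fold enrichment of the peak in the lost region (vertical axis) in each of the 16 lists, by line, genotype (control, Fn14 KO) and treatment (UT, untreated; TW, TWEAK), for the 5 loci. Points are lists, lines are means of 2 lists and crosses at 0 mark lists without a peak, which are the 4 control TWEAK lists at every locus.

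At the SPARC region, control untreated MDA-MB-231 cells had fold enrichments of 12.5 and 11.6 and Hs578T cells of 7.43 and 8.86. In Fn14 KO MDA-MB-231 cells the values were 8.79 and 6.62 untreated and 7.60 and 6.55 with TWEAK. In Fn14 KO Hs578T cells they were 6.78 and 9.41 untreated and 7.45 and 8.38 with TWEAK. The untreated and TWEAK lists of Fn14 KO cells overlapped in both lines. MDA-MB-231 Fn14 KO lists lay below both control untreated lists of the line, while the Hs578T lists overlapped with theirs.

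At the UNC93A region the fold enrichment was 9.57 and 12.5 in control untreated MDA-MB-231 and 7.47 and 9.97 in control untreated Hs578T cells. Fn14 KO Hs578T cells, which held the highest value of the 5 loci, had 17.4 and 11.9 untreated and 15.04 and 13.7 with TWEAK. Fn14 KO MDA-MB-231 cells had 8.41 and 6.67 untreated and 7.04 and 5.92 with TWEAK. The order of the lines was thus not separated in control cells, and in Fn14 KO cells all 4 Hs578T lists lay above all 4 MDA-MB-231 lists.

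At the TTC7B region, Hs578T exceeded MDA-MB-231 in both genotypes. Control untreated lists held 6.83 and 6.08 in MDA-MB-231 and 11.2 and 10.3 in Hs578T. Fn14 KO MDA-MB-231 lists held 8.00 and 5.69 untreated and 5.76 and 5.56 with TWEAK. Those of Hs578T held 14.7 and 15.5 untreated and 13.8 and 13.9 with TWEAK, all above the control untreated lists of that line. Peak width followed the same order, with 1818 to 2230 bp in MDA-MB-231 and 2484 to 3283 bp in Hs578T Fn14 KO cells.

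The C20orf85 region showed the reverse order of the lines. Control untreated MDA-MB-231 lists held 8.47 and 8.49 and Hs578T lists 7.25 and 4.65. Fn14 KO MDA-MB-231 lists held 9.16 and 7.03 untreated and 8.64 and 6.92 with TWEAK, against 3.69 and 5.02 and then 3.81 and 4.79 in Hs578T. The weakest peak of the 5 regions was thus that of Hs578T Fn14 KO untreated replicate 1, at a −log10 q-value of 4.08. Replicate 1 with TWEAK had 4.78.

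At the AK9 region, Hs578T again had the higher values. Control untreated lists held 7.13 and 6.10 in MDA-MB-231 and 8.15 and 7.35 in Hs578T. In Fn14 KO cells the values were 5.06 and 4.36 untreated and 4.92 and 4.64 with TWEAK in MDA-MB-231, and 8.56 and 8.47 and then 7.99 and 8.98 in Hs578T. Untreated and TWEAK lists of Fn14 KO cells overlapped within each line.

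The length under the peak was also compared within Fn14 KO cells. With TWEAK it was 1.56 ± 0.183 kb against 1.49 ± 0.158 kb untreated at SPARC (SD, n = 4), a difference of 0.0768 kb (exact permutation p = 0.556, adjusted p = 0.661). The differences were 0.152 kb at UNC93A (p = 0.389 in the exact test), 0.230 kb at TTC7B (p = 0.333 in the exact test), -0.0958 kb at C20orf85 (p = 0.556 in the exact test) and 0.0145 kb at AK9 (p = 1 in the exact test). Each was smaller than the SD of the untreated lists, which includes the difference between the lines. Within a line, both TWEAK lists lay above both untreated lists in Hs578T at UNC93A (by 0.277 kb on average) and at TTC7B (by 0.403 kb), and below them in MDA-MB-231 at C20orf85 (-0.211 kb). In the other 7 of 10 combinations of line and locus the lists overlapped. The 36 arrangements of these lists allow no p below 0.0556, so this design could not have passed the threshold of 0.05.

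**Figure D3:**
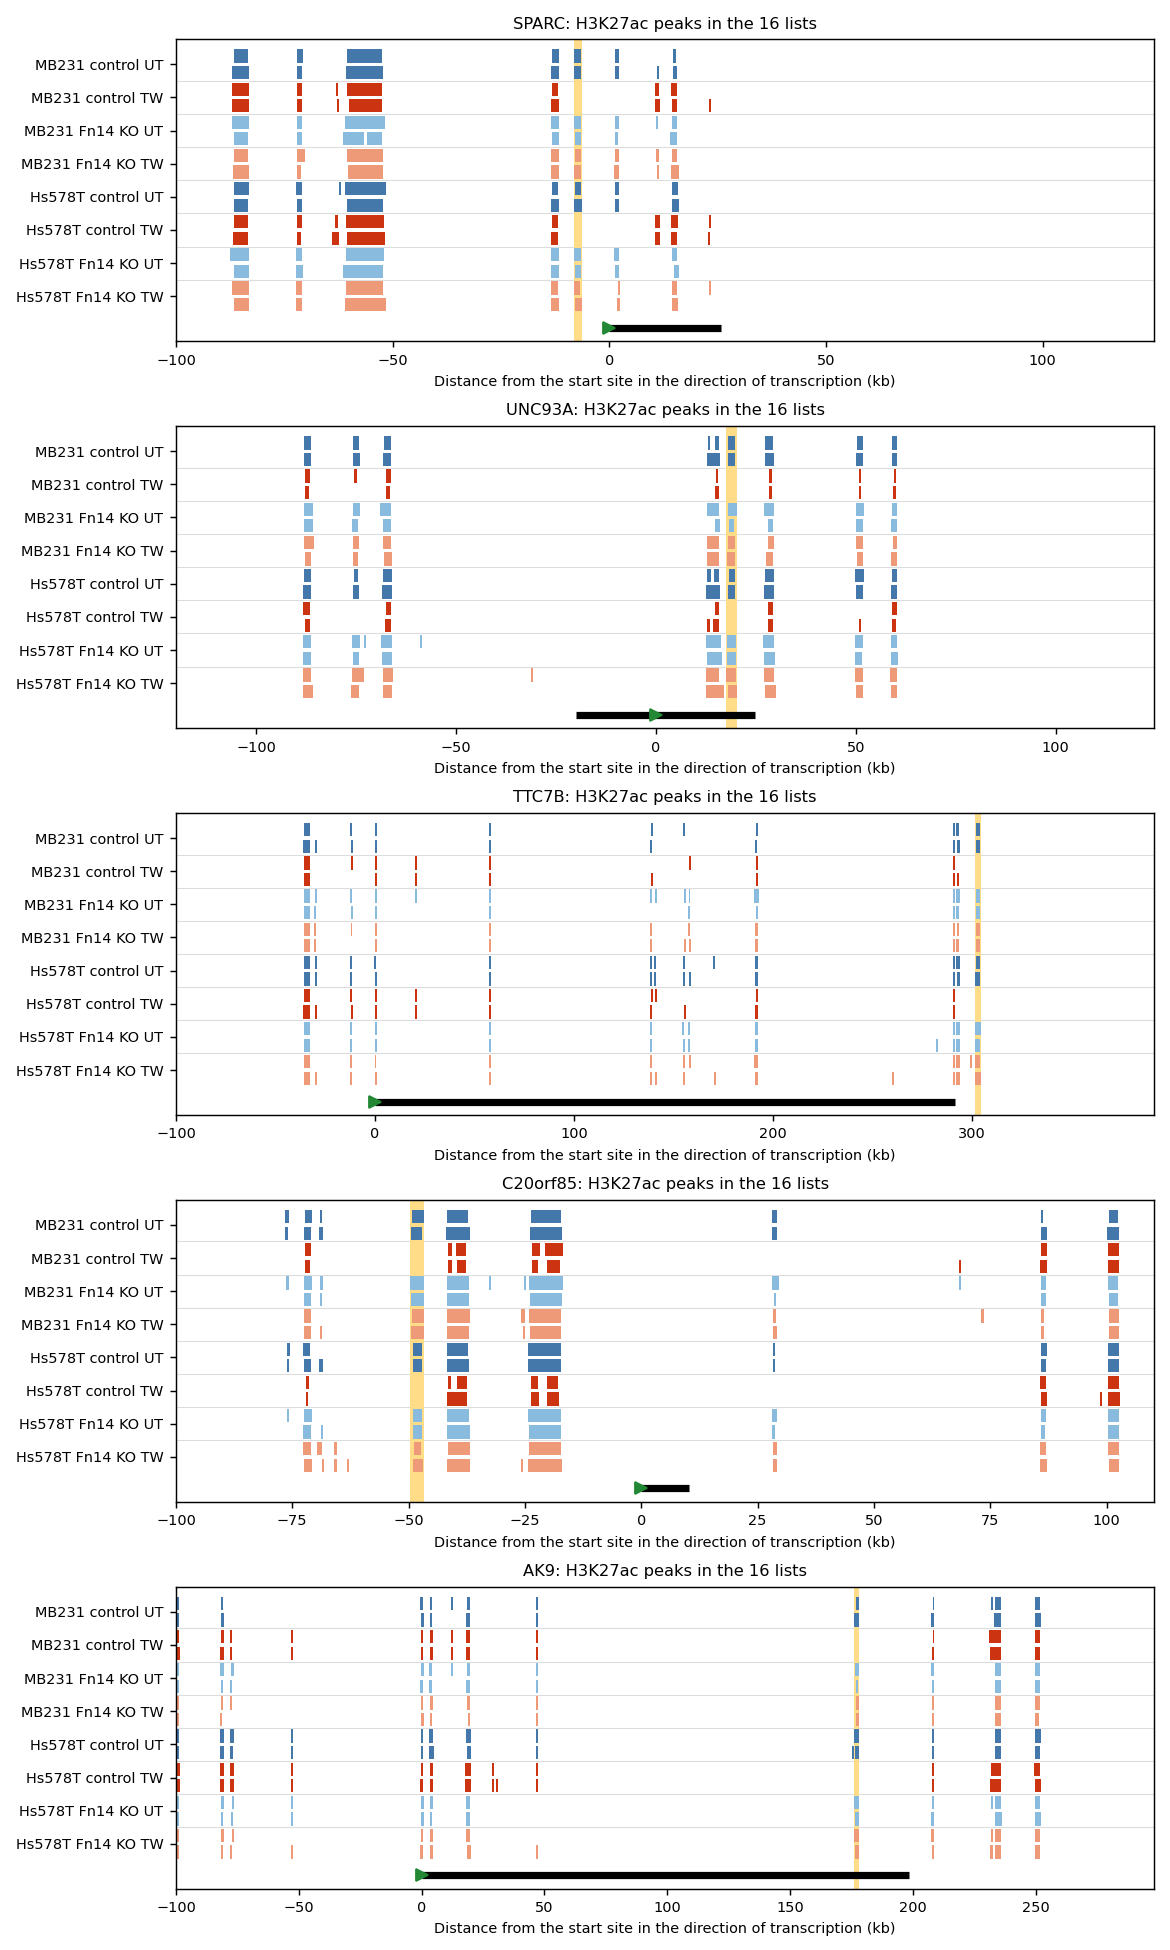
H3K27ac peaks of the 16 lists in the gene body and 100 kb on each side of the 5 genes, drawn by distance from the start site in kb along the direction of transcription (horizontal axis), 1 row per list in pairs of replicates. The yellow band is the lost region, the black bar the gene and the green triangle its start site; control TWEAK lists (dark red) are empty in each band and hold peaks beside it.

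To ask whether the loss was confined to 1 element of each locus, all other peaks in the gene body and 100 kb on each side were taken as neighbours. The SPARC window held 10 neighbouring regions, of which 5 had a peak in all 16 lists. The UNC93A window held 9, the TTC7B window 17, and the C20orf85 and AK9 windows 15 each. A peak in all 16 lists was found at 5 neighbours of UNC93A, TTC7B and C20orf85 each and at 8 neighbours of AK9, against 51.3% of all consensus regions. The neighbours include regions with a peak in only 1 list, which the consensus regions do not. There were 1 of these at SPARC, 2 at UNC93A, 3 at TTC7B, 4 at C20orf85 and 2 at AK9. Lost in control cells of both lines were 1 neighbour of SPARC and 2 of C20orf85, against 1.34% of all consensus regions. No neighbour was lost in Fn14 KO cells of either line. The share lost there genome-wide was only 1.35% for MDA-MB-231 and 0.829% for Hs578T. With so few neighbours, the absence of a loss therefore does not set these windows apart. Counted within 1 line, control cells lost 4.49% of all regions and gained 5.58% in MDA-MB-231, and 4.65% and 5.09% in Hs578T. These control lists chose the loci. Neighbours were compared by the ratio of their fold enrichment between TWEAK and untreated lists where all 8 lists of a genotype had a peak. Over all such regions the log2 ratio had a median of 0.06 in control cells (5th to 95th percentile -0.55 to 0.75, 30477 regions) and of -0.04 in Fn14 KO cells (-0.19 to 0.13, 30960 regions). Outside these ranges lay 7 of 29 shared neighbours of the 5 loci in control cells and 5 of 33 in Fn14 KO cells. The 5 in Fn14 KO cells were a region 1.80 kb downstream of the SPARC start site (-0.23), a region of the UNC93A window 89.98 kb away (-0.22), the region 28.8 kb downstream of the C20orf85 start site (-0.25) and, above the range, the start-site region of TTC7B (0.26) and one 57.5 kb downstream of it (0.15).

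SPARC had a further lost region, at chr5:151684481-151685754 in the 5′ part of the gene body. It was the only region with a peak within 2 kb of an annotated start site of a protein-coding SPARC transcript. Its fold enrichment was 4.28 and 4.77 in control untreated MDA-MB-231 and 3.82 and 3.94 in Hs578T cells. No control TWEAK list had a peak there, and all 8 Fn14 KO lists did, with fold enrichments between 2.78 and 5.09. Of all genes, 1668 (8.32%) had at least 1 lost region in the gene body and flanks and 170 (0.848%) had at least 2, SPARC and C20orf85 among them. The region with the smallest gap to the main lost region, 3.39 kb upstream of it, kept its peak in all 16 lists. There the fold enrichment was 12.6 and 14.7 in control untreated against 8.71 and 8.72 in control TWEAK lists of MDA-MB-231. In Hs578T it was 14.4 and 10.8 against 7.78 and 11.3, so that the lists overlapped in that line.

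Other SPARC neighbours had more peaks or higher values with TWEAK. An intragenic region 11.1 kb downstream of the start site had a peak in 1 of 4 control untreated lists, at 3.13, and in all 4 control TWEAK lists, at 6.35, 7.37, 6.33 and 5.55. In Fn14 KO cells it had a peak in 1 untreated and 2 TWEAK lists, at 2.83 to 2.95. A region 15.1 kb downstream had a mean fold enrichment of 4.04 untreated and 5.75 with TWEAK in control cells and of 4.42 and 4.10 in Fn14 KO cells. A region 63.2 kb upstream had a peak in the 4 control TWEAK lists and in no other list, at 2.57 to 3.05, whereas 2.48% of all consensus regions were gained with TWEAK in control cells of both lines. The shared start-site region of ATOX1, a copper chaperone, and G3BP1, a stress granule protein, had a mean of 18.0 untreated and 20.2 with TWEAK in control cells. FAT2, a cadherin, had no start-site peak in any list. Gain, loss and little difference thus stood side by side at SPARC within 74.8 kb of the lost region.

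The UNC93A window had lower values with TWEAK at each neighbour that control cells shared. All 5 neighbours shared by the 8 control lists had lower mean fold enrichments with TWEAK, with log2 ratios from -1.04 to -0.63 (median -0.83), each below the 5th percentile of all regions. In Fn14 KO cells the ratios of 7 neighbours ran from -0.22 to 0.01, and 1 of them lay below the range of all regions in that genotype. The loss at UNC93A depended on how peaks were merged, since the closest neighbour was 0.465 kb away. With peaks up to 500 bp apart joined, the region included this neighbour and had a peak in 4 control TWEAK lists. The neighbour itself had values of 6.76 and 6.17 untreated against 3.996 and 3.68 with TWEAK in MDA-MB-231 and of 8.58 and 7.20 against 5.06 and 5.79 in Hs578T. A region 103 kb away had 15.3 and 15.9 against 7.03 and 7.71 in MDA-MB-231 and 17.9 and 17.8 against 7.97 and 11.3 in Hs578T. A further region, 89.98 kb from the lost one, had a peak in all 4 control untreated lists and in 1 control TWEAK list. In none of these 3 regions did control untreated and TWEAK lists overlap. Neither UNC93A nor TTLL2 had a start-site peak in any list.

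At TTC7B the neighbours differed among themselves. The region at the canonical start site had a peak in all 16 lists, with a mean fold enrichment of 4.21 untreated and 4.44 with TWEAK in control cells. A region 10.7 kb from the lost one, at the 3′ end of the gene, had 8.91 and 9.14 untreated against 12.8 and 15.1 with TWEAK in MDA-MB-231, and 8.19 and 6.67 against 10.6 and 8.43 in Hs578T. A region 7.33 kb from the lost one, between both, had a peak in all 4 control untreated lists and in 1 control TWEAK list, and in all 8 Fn14 KO lists. Within the gene, a region 20.6 kb downstream of the start site had a peak in no control untreated and in all 4 control TWEAK lists, at 2.71 to 3.62, and in 1 Fn14 KO list, untreated, at 2.73. The 5 shared neighbours had log2 ratios from -0.03 to 0.51 in control cells.

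At C20orf85, 2 further regions were lost in both lines. That at chr20:58178979-58180484, 28.8 kb downstream of the start site, had values of 3.67 and 4.28 in MDA-MB-231 and 3.21 and 2.77 in Hs578T control untreated lists and a peak in all 8 Fn14 KO lists. That at chr20:58074305-58075371 had 2.66 to 3.12 in control untreated lists and a peak in 2 Fn14 KO lists, both untreated. A region 4.62 kb from the main lost region kept its peaks, with 16.48 and 15.04 untreated against 12.5 and 12.2 with TWEAK in MDA-MB-231 and 14.5 and 14.2 against 7.75 and 10.2 in Hs578T. A region 21.1 kb away had a log2 ratio of -0.87 in control and -0.02 in Fn14 KO cells. A pair of regions 132 and 147 kb away had positive ratios, 0.59 and 0.25. C20orf85 and ANKRD60, the other protein-coding gene starting in the window, had no start-site peak in any list.

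The AK9 window had mostly higher values with TWEAK, and the highest ratios lay far from the lost region. Of 9 neighbours shared by the 8 control lists, the log2 ratios ran from -0.23 to 1.18 with a median of 0.36, and in Fn14 KO cells those of 8 neighbours ran from -0.14 to 0.08. Neighbours 29.0, 52.6 and 71.0 kb from the lost region had 0.27, 0.16 and -0.23 in control cells. Those 129, 156, 171 and 175 kb away had 0.36, 0.41, 0.60 and -0.0011, and those 256 and 275 kb away 1.18 and 0.64. The start-site region that AK9 shares with FIG4, a phosphoinositide phosphatase, had a mean fold enrichment of 10.4 in both untreated and TWEAK control lists. A region 3.97 kb downstream of the start site lay 171 kb from the lost region. It had 5.97 and 8.17 untreated against 11.4 and 11.5 with TWEAK in MDA-MB-231. In Hs578T it had 11.5 and 7.61 against 13.5 and 14.1. A region 81.2 kb upstream of the start site lay 256 kb from the lost region. It had 3.20 and 4.47 against 8.72 and 7.81 in MDA-MB-231, and 6.83 and 4.65 against 15.3 and 11.7 in Hs578T. The start-site regions of the adjoining genes differed less. The mean was 5.58 untreated and 6.22 with TWEAK at MICAL1, which oxidises actin, and 5.67 and 6.82 at the zinc finger gene ZBTB24. It was 7.71 and 6.56 at the region shared by the sphingomyelinase gene SMPD2 and PPIL6.

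**Figure D4:**
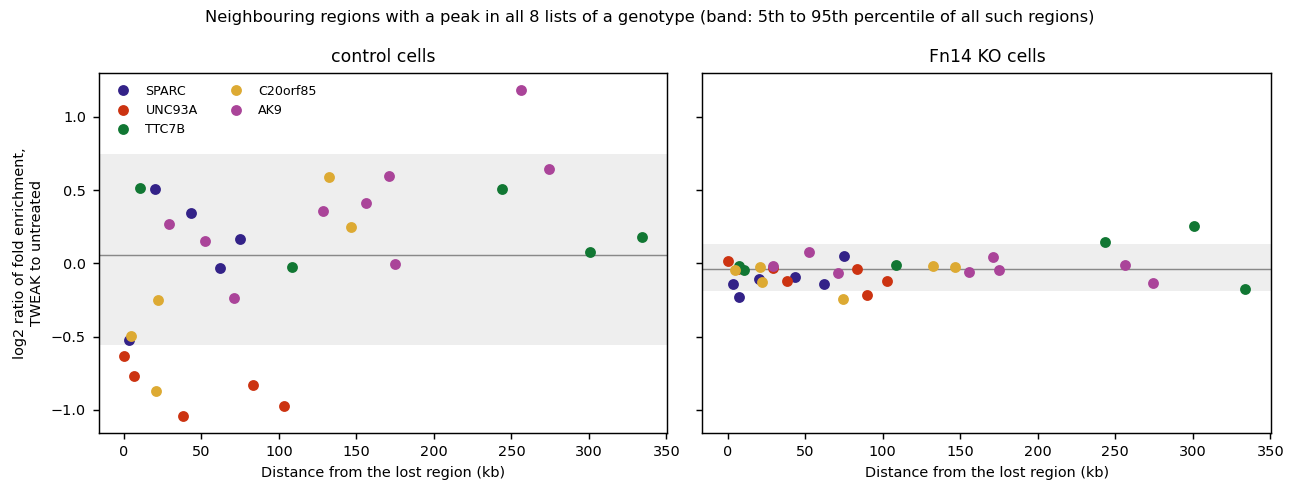
log2 ratio of fold enrichment between TWEAK and untreated lists (vertical axis) of neighbouring regions by distance from the lost region in kb (horizontal axis), in control cells (left) and Fn14 KO cells (right). Points are regions with a peak in all 8 lists of the genotype, coloured by locus, and the grey band spans the 5th to 95th percentile of all such regions; in control cells the 5 UNC93A points and 1 C20orf85 point lie below the band and 1 AK9 point above it, and 5 of 33 points lie outside the narrower band of Fn14 KO cells.

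The length under neighbouring peaks summarised each window per list. At UNC93A it was 11.4 and 14.3 kb in MDA-MB-231 and 12.8 and 14.9 kb in Hs578T control untreated lists, and 5.27 and 4.91 kb and then 6.11 and 7.78 kb with TWEAK. Fn14 KO lists held 11.97 to 17.99 kb. At C20orf85 the 4 control untreated lists held 17.3 to 19.9 kb, the 4 control TWEAK lists 11.1 to 13.6 kb and the 8 Fn14 KO lists 16.97 to 20.4 kb. At AK9 the direction was the opposite, with 11.3 to 15.7 kb in control untreated, 17.5 to 20.3 kb in control TWEAK and 9.27 to 14.7 kb in Fn14 KO lists. At TTC7B control untreated lists held 8.18 to 11.7 kb and control TWEAK lists 6.55 to 8.87 kb, and the TWEAK lists were lower within each line. At SPARC all 16 lists lay between 15.8 and 18.95 kb, and control untreated and TWEAK lists overlapped. Since the loci were chosen by the same contrast in the same control lists, no p-value is attached to these differences.

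**Figure D5:**
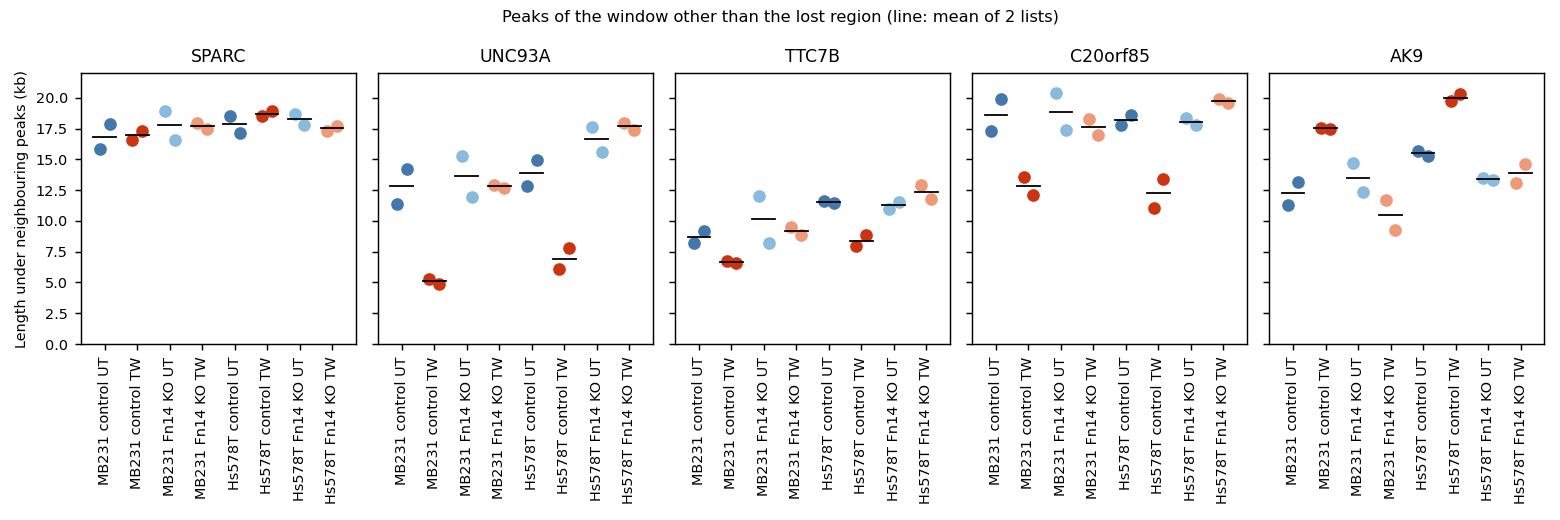
Length under neighbouring peaks in kb (vertical axis) in each of the 16 lists, by line, genotype and treatment, for the 5 loci. Points are lists and lines means of 2 lists; control TWEAK lists (dark red) lie between 4.91 and 7.78 kb at UNC93A, below all other lists, and between 17.5 and 20.3 kb at AK9, above them.

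Between genotypes, Fn14 KO lists had 15.2 ± 2.41 kb (SD, n = 8) under neighbouring peaks at UNC93A and control lists 9.69 ± 4.14 kb (SD, n = 8), a difference of 5.50 kb (exact permutation p = 0.00463, adjusted p = 0.0514). The control TWEAK lists, which the choice of the loci used, enter this comparison here and at the other loci. The genotype p-values are therefore not independent of that choice and serve as description only. At UNC93A the difference in untreated cells alone was 0.809 kb in MDA-MB-231 and 2.74 kb in Hs578T, against 7.71 and 10.7 kb with TWEAK. At C20orf85 the difference was 3.11 kb (exact permutation p = 0.0231, adjusted p = 0.0656) and at TTC7B 1.92 kb (exact permutation p = 0.0247, adjusted p = 0.0656). In untreated cells alone it was 0.277 kb in MDA-MB-231 and -0.114 kb in Hs578T at C20orf85, against 4.78 and 7.50 kb with TWEAK. At TTC7B it was 1.46 and -0.302 kb untreated, against 2.56 and 3.95 kb with TWEAK, so that in Hs578T the sign differed between untreated and TWEAK lists at both loci. At AK9 it was -3.50 kb (exact permutation p = 0.0201, adjusted p = 0.0656), with 1.28 kb in untreated MDA-MB-231 and -2.06 kb in untreated Hs578T cells, against -7.06 and -6.16 kb with TWEAK. At SPARC it was 0.231 kb (exact permutation p = 0.617, adjusted p = 0.701). In untreated cells it was 0.9275 kb in MDA-MB-231 and 0.419 kb in Hs578T, where the lists of the genotypes overlapped. With TWEAK it was 0.7745 kb in MDA-MB-231 and -1.198 kb in Hs578T, each without overlap, so that the sign differed between the lines.

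Between the lines, Hs578T had the longer neighbouring coverage at 3 loci, by p-values that held only before adjustment. The difference was 2.70 kb at UNC93A (exact permutation p = 0.00926, adjusted p = 0.0540), 2.23 kb at TTC7B (exact permutation p = 0.00463, adjusted p = 0.0514) and 2.26 kb at AK9 (exact permutation p = 0.00617, adjusted p = 0.0514). At SPARC it was 0.763 kb (exact permutation p = 0.113, adjusted p = 0.188) and at C20orf85 0.0906 kb (exact permutation p = 0.886, adjusted p = 0.924). Even at TTC7B the ranges of the lines overlapped, with 7.95 to 12.9 kb in Hs578T and 6.55 to 12.1 kb in MDA-MB-231. The whole lists of Hs578T covered 85.6 ± 3.63 Mb (SD, n = 8) and those of MDA-MB-231 73.1 ± 6.60 Mb (SD, n = 8), a ratio of 1.17. Neighbouring coverage had a ratio of 1.17 at AK9, equal to that of the whole lists, and of 1.24 at UNC93A, 1.26 at TTC7B, 1.04 at SPARC and 1.01 at C20orf85. Whether any locus departed from the ratio of the whole lists was not tested. Between Fn14 KO and control lists of both lines together the ratio of whole lists was 1.00241. In Hs578T, Fn14 KO lists covered 87.2 to 88.9 Mb and control lists 77.8 to 86.6 Mb. In MDA-MB-231 they covered 64.2 to 81.2 Mb and 68.9 to 82.9 Mb. The part of this in the genotype differences of the loci was not tested. Of the 15 exact tests of genotype, line and the lost region in Fn14 KO cells, 7 had an unadjusted p of at most 0.05 and 0 an adjusted one. Those of the lost region, 1 per locus, could not reach 0.05 in any outcome, and they count in the adjustment.

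Related genes were examined in the same windows. Of 7 other genes of the SPARC family, 1 (SPOCK3) had a region lost in both lines in its gene body and flanks, as had 1 of 12 matrix genes (COL5A1) and 1 of 8 adenylate kinases (AK4). Of 5 genes of the TTC7 complex and its relatives 0 had one, nor had UNC93B1. Of all genes 8.32% had one. For start sites, the highest peak within 2 kb of any annotated start of a protein-coding transcript was taken. It was present in all 16 lists at FSTL1, a secreted relative of SPARC, with a mean fold enrichment of 6.68 untreated and 15.2 with TWEAK in control cells and of 5.20 and 4.81 in Fn14 KO cells. At COL1A1, which encodes a chain of fibrillar collagen, the means in control cells were 10.5 and 7.15, and at FN1, which encodes fibronectin, 13.6 and 8.95. In Fn14 KO cells they were 8.22 and 8.16 at COL1A1 and 11.1 and 11.1 at FN1. At PI4KA, the kinase that TTC7B anchors, control cells had 6.85 and 6.30 and Fn14 KO cells 5.85 and 5.34.

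Over the 16 lists, taking a list without a peak as 0, the −log10 q-values of the 5 lost regions correlated with each other by Pearson's r of 0.0896 (TTC7B and C20orf85) to 0.928 (TTC7B and AK9). The 0 in the 4 control TWEAK lists, which the choice fixed, is common to all. The other regions most like the SPARC region were nearest NPBWR1 (r = 0.984), LAIR2 (r = 0.955) and TTC14 (r = 0.950). Most like the UNC93A region was its own neighbour 89.98 kb away (r = 0.990), before regions in or nearest SYN2 and MPRIP (r = 0.973 each). For TTC7B they were those in or nearest ADGRA1 (r = 0.977), EFNB2 (r = 0.976) and PAX8 (r = 0.974). For C20orf85 they were those in LAMC1 (r = 0.968), NTM (r = 0.964) and C10orf67 (r = 0.956), and for AK9 those in PLEKHA7 (r = 0.981), MAP4 (r = 0.980) and PREP (r = 0.980). The nearest gene body was 497079 bp away for EFNB2 and 184224 bp for TTC14. The regions named for LAIR2, TTC14, SYN2, MPRIP, ADGRA1, EFNB2, PLEKHA7, MAP4 and PREP still had peaks in all 4 control TWEAK lists at lower scores, such as a mean −log10 q-value of 31.3 untreated and 1.88 with TWEAK at PLEKHA7.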

How the data were processed

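H3K27ac ChIP-seq peak lists of 16 samples were analysed, 2 replicates in each of 8 groups taken from the titles. Per the study's methods, the authors used Trimmomatic for trimming, Bowtie2 for alignment (hg38) and MACS2 for peaks against input, and took out blacklisted regions. Versions are not given in the sources used here. Peaks were called per sample. The deposited score is 10 times the −log10 q-value without decimals. Fold enrichment over background was deposited as a ratio, beside the −log10 p-value and −log10 q-value of each peak. These are the caller's values, not read counts. Depth is unknown, so no interval that needs it is given, and differences in depth between libraries could move peaks across the calling threshold.

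Peaks sharing at least 1 bp were merged into 64545 regions, of which the 55219 in at least 2 lists were kept (Python 3.11.15, pandas 2.3.3, numpy 2.4.6). The fold enrichment of a region in a list is that of its best peak there. Chromosome names and peak ends were checked against hg38, from which motifs and sequences were read. Start sites were those of protein-coding transcripts only. Values per list were compared with exact permutation tests, two-sided, over 1296 arrangements within strata of line, genotype or treatment (36 over the 8 Fn14 KO lists), with Benjamini-Hochberg adjustment over 25 tests and a threshold of 0.05. The test and the merging were tested on simulated data. No p-value is given for TWEAK differences of neighbours, since that contrast chose the loci, but they count in the adjustment. The members and lists were chosen with earlier results of these data known. Named genes were the 5 loci, genes starting in their windows, the next 5 lost regions, the 3 regions most like each, and families. Alternatives were a 50 kb flank, a −log10 q-value of at least 2, lists trimmed to 39544 peaks, a merging gap of 500 bp, a replicate block, leaving out each list, and leaving out other lost regions.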

Additional observations from a re-analysis of the deposited data

Results flagged for a closer look

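The difference between TWEAK and untreated lists in the length under neighbouring peaks was compared between the genotypes. Listed here are the 3 loci with an unadjusted exact permutation p of at most 0.05. Control minus Fn14 KO differences were -7.45 kb at UNC93A, -6.06 kb at C20orf85 and 6.22 kb at AK9. Those at TTC7B (-2.68 kb) and SPARC (0.885 kb) did not meet that cut. All loci were chosen by the TWEAK contrast in the same control lists, which supply most of each value. The cut is therefore not independent of that choice, and these values are a description without a p-value attached.

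Within 1 line, both TWEAK lists lay on one side of the untreated lists in control cells and on the other side in Fn14 KO cells at 3 loci. The control minus Fn14 KO differences were -4.25 kb at TTC7B in Hs578T, -7.62 kb at C20orf85 in Hs578T and 8.34 kb at AK9 in MDA-MB-231. The difference was not tested within a line.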

How the results depend on the processing

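With neighbours taken within 50 kb, adjusted p passed the threshold for the genotype difference at UNC93A (3.87 kb) and C20orf85 (2.88 kb) and for the line difference at UNC93A (2.33 kb) and TTC7B (2.23 kb), while the line difference turned to -0.117 kb at SPARC and -0.262 kb at C20orf85. With −log10 q-values of at least 2 the passing values were 5.47 and 2.40 kb (UNC93A, genotype and line), 2.44 kb (TTC7B, line) and 2.62 kb (AK9, line), and the TWEAK difference at SPARC turned to -0.348 kb. With trimmed lists they were 5.47, 2.40, 1.99 and 1.70 kb, and SPARC turned to -0.396 kb. With peaks up to 500 bp apart merged they were 4.19 and 1.86 kb (UNC93A), 2.23 kb (TTC7B) and 2.26 kb (AK9). With other lost regions left out of the neighbours, chosen after seeing the data, they were 5.50, 2.70, 2.23 and 2.26 kb, and the genotype difference at SPARC turned to -0.108 kb. The difference of TWEAK effects at AK9, for which no p is given since the loci were chosen by that contrast, was 3.67 kb at 50 kb, 7.20 kb with the higher q threshold, 6.77 kb with trimmed lists and 6.22 kb without other lost regions. The genotype values include the control TWEAK lists that chose the loci, so their adjusted p are not independent of that choice. The 50 kb flank and the setting without other lost regions were adjusted over fewer tests, without those of the lost region. At UNC93A, TTC7B and AK9 no neighbour was lost in both lines, so leaving out lost regions changed no value there. Only the adjustment differed there from the main setting. For the 50 kb flank the part of the number of tests was not tested. All 5 loci stayed lost with trimmed lists and the higher q threshold, at ranks between 2 and 10, and the UNC93A region, 0.465 kb from its neighbour, merged with it at 500 bp and then had a peak in 4 control TWEAK lists. By start site, the UNC93A region would be named for TTLL2.

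Leaving out 1 list gave ranges of 5.09 to 5.92, 2.29 to 3.12 and -8.29 to -6.62 kb at UNC93A (genotype, line, TWEAK effects), 1.75 to 2.72 and -3.65 to -1.70 kb at TTC7B (line, TWEAK effects), -6.81 to -5.31 and -0.283 to 0.464 kb at C20orf85 (TWEAK effects, line), 5.62 to 6.83, -3.80 to -3.20 and 1.95 to 2.56 kb at AK9 (TWEAK effects, genotype, line) and -0.230 to 0.349 and -0.0588 to 0.520 kb at SPARC (TWEAK, genotype). For the lost region in Fn14 KO lists the ranges were -0.0173 to 0.171 kb (SPARC), -0.0153 to 0.319 kb (UNC93A), -0.242 to 0.0505 kb (C20orf85) and -0.225 to 0.254 kb (AK9). Adjusted p passed the threshold for genotype or line differences without any 1 of 8 lists: the 4 control TWEAK lists, MDA-MB-231 control untreated replicate 2, Hs578T control untreated replicate 1, MDA-MB-231 Fn14 KO untreated replicate 1 and Hs578T Fn14 KO TWEAK replicate 2. Where a control list was left out, the adjustment ran over fewer tests, without those of the lost region. The part of this in the passing values was not tested. The count of lost regions was 831 to 1098 without 1 control list. Leaving out a list removes a condition of the definition, so the count could not fall below 742.

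Same-numbered lists were not taken as pairs in the main tests. Their deviations correlated by -0.0935 to 0.251 over 28337 regions, the highest between Hs578T Fn14 KO untreated and TWEAK lists. Whether the numbers pair the lists was not tested. With the replicate number as a block the differences kept their values (UNC93A genotype difference 5.50 kb). Of the 15 tests of genotype, line and the lost region, 4 had an unadjusted p of at most 0.05 and 0 an adjusted one. Those of the lost region could not reach 0.05 in this setting either.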
